A study of Mus musculus with 54 samples.

Results

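The genes described here are 10 transcripts of the ATF4-CHOP arm of the stress response and the mitokines it induces, measured in the hearts and livers of mice whose mitochondrial ribosomes decode with altered fidelity. They were chosen by gene name: the transcription factors Ddit3 (which encodes CHOP), Atf3, Atf4 and Atf5, the feedback and growth brakes Trib3, Chac1, Sesn2 and Ddit4, and the mitokines Fgf21 and Gdf15. Of 54356 gene rows in each tissue table, 11 carried these 10 names, because Ddit3 has a second, overlapping gene model of 105 exonic bases that reached at most 4.4 normalized counts in any mouse and was not tested. Total RNA was sequenced from C57BL/6 mice at 20 weeks of age, litter-mate matched, all of them on a high-fat diet (HFD) with 42% of its energy as fat, so the controls carried the diet as well. The 3 genotypes were Mrps12+/+ (wild-type controls), Mrps12ep/ep (homozygous for an error-prone form of the mitoribosomal decoding protein MRPS12) and Mrps12ha/ha (homozygous for a hyper-accurate form), with 3 mice per genotype and tissue. Each value is the pool of 3 technical libraries from 1 mouse, so the spread given is that between mice. Both mutants were set against the same Mrps12+/+ mice, and mice with the same number in heart and liver are not stated to be the same animal.

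When a cell meets amino acid shortage, misfolded protein in the endoplasmic reticulum or failing mitochondria, kinases phosphorylate the initiation factor eIF2α, general translation slows and the mRNA of ATF4 is translated more efficiently. ATF4 then induces CHOP, ATF3, ATF5 and a set of metabolic and inhibitory genes, often as a dimer with C/EBP proteins. Because this first step is translational, the amount of Atf4 mRNA need not follow the amount of ATF4 protein, and the protein was not measured here. FGF21 and GDF15 are hormones released by tissues with disturbed mitochondria, the liver being the main source of circulating FGF21.

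Composite C/EBP-ATF elements, which ATF4 and CHOP bind with C/EBP partners, were looked for in the 300 bases around each transcription start (250 before and 50 after, RefSeq, GRCm38.p6), since ATF4 is known to act on many of its targets through such elements. The motif TGATGNAA, searched on both strands, was found for 4 of the 10 genes and in 4.51% of the 27025 genes with such a window, and its form TGATGCAA, which is a subset of it, for 3 of the 10 and in 1.03% of all. The palindromic cyclic AMP response element TGACGTCA was found for 0 of the 10 and in 2.03% of all. The fourth match, in Trib3, lay 14 bases after the start. The 3 stretches with TGATGCAA are printed 5′ to 3′ on the strand of the gene, with the match in capitals, which reads as its reverse complement in each. A match is a description of letters and not a shown binding site.
Atf3, chr1:191183410-191183469, minus strand, match 110 bases before the start: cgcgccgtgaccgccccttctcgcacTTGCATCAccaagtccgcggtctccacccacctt
Chac1, chr2:119351023-119351082, plus strand, match 193 bases before the start: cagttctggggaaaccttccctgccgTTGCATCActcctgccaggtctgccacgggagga
Fgf21, chr7:45615596-45615655, minus strand, match 139 bases before the start: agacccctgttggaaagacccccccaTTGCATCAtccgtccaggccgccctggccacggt
The 3 genes did not share a pattern in the values below: in Mrps12ha/ha hearts Atf3 was lower and Chac1 higher than in the controls, while Fgf21 was near 0 in every heart.

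Hearts held 11202866 to 51480266 reads on genes and livers 21238039 to 81518320. The shallowest heart was Mrps12ha/ha mouse 2, in which 1 read equalled 3.0201 normalized counts. It also stood apart in the fit, with the lowest array weight of all hearts (0.167, against 0.47 to 4.928 in the other 8). For some genes it lay with the controls, as for Acadm (62503.9, against 27795.3 and 24689.3 in Mrps12ha/ha mice 1 and 3 and 53015.3 to 64101.2 in controls). For others it did not, as for Angptl4 (1235.2, against 1194.6 and 2094.7 in mice 1 and 3 and 305.4 to 635.2 in controls). Calls in the heart are therefore given with and without Mrps12ha/ha mouse 2. Cardiomyocyte markers made up 7.26% to 11.1% of the counts in hearts and hepatocyte markers 10.6% to 14.3% in livers. Atrial markers summed to 0.0243% to 0.0427% in the Mrps12ha/ha hearts and to 0.0169% to 1.42% in the others, erythroid markers to 0.589% to 4.27% against 0.286% to 0.75%. Mesothelial markers summed to 311.9 to 520.9 normalized counts in the Mrps12ha/ha hearts and to 622.0 to 2786.3 in the others, and adipocyte markers to 21.4 to 36.2 against 4.0 to 13455.8. Of 5 mesothelial markers 4 were lower than in the controls without overlap, where 21.2% of all genes did not overlap in either direction. All 6 endothelial markers lay above 0 in Mrps12ha/ha over Mrps12+/+ hearts (median log2 fold change 0.48). Without mouse 2, 5 of these 6 and 5 of 5 erythroid markers were higher with an adjusted p under 0.05, as were 12.2% of all genes. Hepatocyte markers summed to 3000.3 to 17755.2 in Mrps12ha/ha, 1604.7 to 14194.4 in Mrps12ep/ep and 6022.7 to 18104.4 in Mrps12+/+ hearts. The part of these markers in the heart results was not tested. In the livers, skeletal muscle markers summed to 29107.4 and 37785.3 normalized counts in Mrps12+/+ mice 1 and 2 and to at most 220.3 in the other 7, and acute phase transcripts to 2204363.5 (4.12% of the counts) in Mrps12+/+ mouse 3 and to at most 456823.2 elsewhere. In bulk tissue, fewer cells of a type and less RNA per cell cannot be told apart. Mrps12 itself carries point changes, so its transcript (1027.6 to 1396.9 normalized counts in hearts, 1507.7 to 1914.5 in livers) is no check of the genotype.

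The order of the 10 genes differed between the tissues of the Mrps12+/+ mice. Per kilobase of exon, the levels in the heart ran from Ddit4 (2650 ± 753 normalized counts per kilobase, SD, n = 3), an inhibitor of mTORC1 signalling, through Atf4 (1800 ± 65.4) and Atf5 (1010 ± 64.4) to Ddit3 (385 ± 9.4) and Atf3 (366 ± 52.9), with Chac1, Sesn2, Trib3 and Gdf15 at 39.1 to 64.2 and Fgf21 at 3.61. Ddit3 and Atf3 overlapped between mice, as did each neighbouring pair from Chac1 to Gdf15. In the liver Atf5 came first (10300 ± 864 per kilobase, above 98.4% of the tested genes), followed by Atf4 (2500 ± 178) and Ddit4 (1270 ± 539). Fgf21 (712 ± 280) and Gdf15 (679 ± 342) overlapped there with each other and with Ddit3 (518 ± 74.3), and Atf3 was lowest (132 ± 120). The 2 tables were normalized separately, so levels were ordered within a tissue and not compared across tissues. Atf5 and Ddit3 each overlap a gene on the opposite strand (Nup62 and Mars), and the quantification was stranded.

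The hearts of the Mrps12ha/ha mice held more Ddit3, Trib3 and Chac1 and less Atf3 than those of the controls, in each case with no overlap between the mice of the 2 groups, while Atf4 mRNA differed by 0.03 on the log2 scale. None of these differences passed the adjusted threshold with all 9 hearts in the fit. Of the 9 genes tested (Fgf21 was too low), 0 had an adjusted p under 0.05 (limma, Benjamini-Hochberg), as did 0.0311% of the 16057 genes tested. At an unadjusted p under 0.05 there were 5 of 9, against 19.7% of all genes, and the groups did not overlap for 4 of 9, against 21.2%. Without Mrps12ha/ha mouse 2, 2 of 9 (Ddit3 and Trib3) were higher with an adjusted p under 0.05, as were 12.2% of all genes, and 1 of 9 (Atf3) was lower, as were 14.8%. With all mice kept and weighted by array weights 5 of 9 had an adjusted p under 0.05 (Ddit3, Atf3, Atf5, Trib3 and Chac1), as did 34.7% of all genes. The number of calls in the heart depended on whether Mrps12ha/ha mouse 2 was kept and on how the 9 hearts were weighted, over these genes and over all genes.

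**Figure D1:**
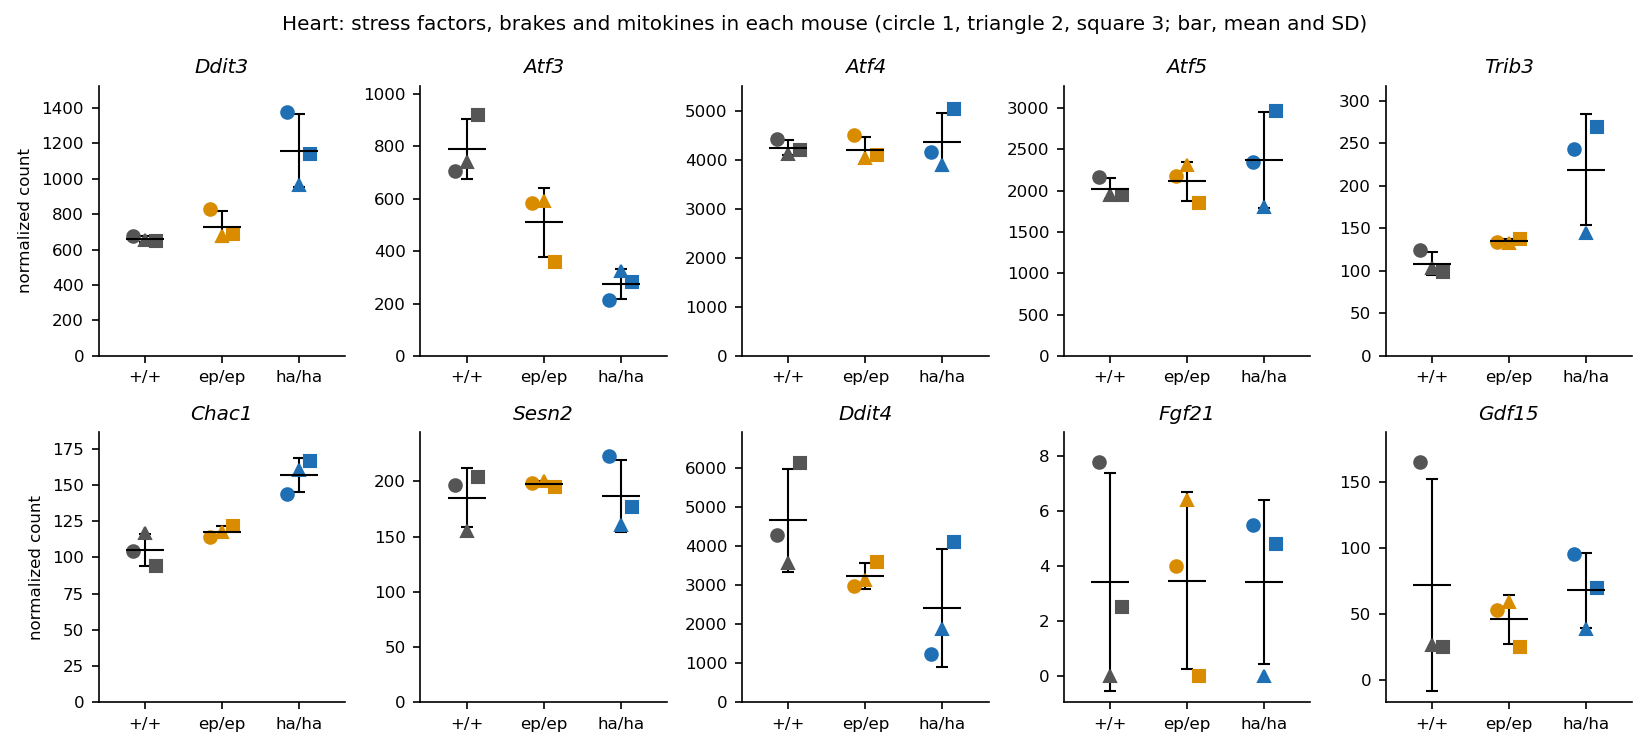
Normalized counts of the 10 genes in each of the 9 hearts, by genotype, with 1 panel per gene, symbols for mouse 1, 2 and 3, and a bar for the mean and SD of 3 mice. The Mrps12ha/ha mice lie above both other genotypes for Ddit3 (963.4 to 1373.2 against at most 828.2) and below them for Atf3 (213.5 to 326.2 against at least 357.8).

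Ddit3 encodes CHOP, the factor that drives the apoptotic branch of prolonged stress. It was counted at 677.7, 652.4 and 647.8 in Mrps12+/+ hearts, at 828.2, 675.6 and 685.6 in Mrps12ep/ep hearts and at 1373.2, 963.4 and 1138.3 in Mrps12ha/ha hearts. Every Mrps12ha/ha heart was above every other heart, and the controls lay close together (659 ± 16.1, SD). In Mrps12ha/ha over Mrps12+/+ the log2 fold change was 0.80 (95% interval 0.47 to 1.13, limma adjusted p = 0.144), a ratio of means of 1.76. The difference of Mrps12ep/ep from the controls was 0.14 (-0.19 to 0.47).

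Atf3, an early-response factor that ATF4 induces and that represses many promoters, ran the other way. Its counts were 707.8, 740.6 and 919.4 in Mrps12+/+, 583.5, 590.9 and 357.8 in Mrps12ep/ep and 213.5, 326.2 and 283.5 in Mrps12ha/ha hearts. The 3 genotypes did not overlap in any pair, and the Mrps12ep/ep mice lay between the others. On the log2 scale the difference from the controls was -1.53 in Mrps12ha/ha (-2.06 to -1.01, adjusted p = 0.0935) and -0.65 in Mrps12ep/ep (-1.18 to -0.13, adjusted p = 1.0). The exact two-sided permutation test gave p = 0.1 for both, the smallest that 3 against 3 mice allow, so that test alone cannot pass 0.05 for any gene here. Over the other 15 immediate early genes the median log2 fold change in Mrps12ha/ha hearts was -0.33, against -0.02 over all genes, with Zfp36, an mRNA-destabilizing protein, lower (-0.59 ± 0.21, SE) and Ier3 higher (0.35 ± 0.18), and 0 of the 15 had an adjusted p under 0.05 (1, higher, without Mrps12ha/ha mouse 2). The part of the immediate early genes in the Atf3 values was not tested.

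Atf4 and Atf5 were close between genotypes in the heart. Atf4 was counted at 4420.2, 4122.7 and 4201.0 in Mrps12+/+, 4506.3, 4034.9 and 4093.9 in Mrps12ep/ep and 4165.6, 3902.0 and 5038.0 in Mrps12ha/ha hearts, and all 3 groups overlapped. Its log2 fold change in Mrps12ha/ha was 0.03, with an interval of -0.23 to 0.30. Atf5, a related factor that induces mitochondrial chaperones, had a log2 fold change of 0.20 (-0.19 to 0.60), with Mrps12ha/ha mice at 2352.5, 1797.0 and 2966.1, a wider spread than the 1942.7 to 2170.0 of the controls.

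Among the brakes, Trib3, a pseudokinase that binds ATF4 and CHOP and limits their activity, was counted at 124.0, 103.0 and 98.7 in Mrps12+/+, 133.7, 132.2 and 138.0 in Mrps12ep/ep and 243.0, 145.0 and 269.0 in Mrps12ha/ha hearts. As with Atf3, no pair of genotypes overlapped and Mrps12ep/ep lay in the middle, but Mrps12ha/ha mouse 2, with 48 reads, was close to the Mrps12ep/ep mice. The log2 fold change was 0.96 (0.42 to 1.50, adjusted p = 0.191) in Mrps12ha/ha and 0.31 (-0.23 to 0.85) in Mrps12ep/ep. Chac1, a glutathione-degrading enzyme that is a direct target of ATF4, was counted at 104.2, 116.8 and 94.3 in controls and at 143.6, 160.1 and 166.7 in Mrps12ha/ha hearts, with Mrps12ep/ep at 113.9 to 121.7. Its difference was smaller (0.58, 0.19 to 0.96, adjusted p = 0.206) but even, including mouse 2. Sesn2, a sestrin that senses leucine and restrains mTORC1, overlapped between all groups (0.01, -0.40 to 0.41).

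Ddit4 (REDD1), induced by glucocorticoids and hypoxia as well as by ATF4, was counted at 4273.8, 3572.4 and 6129.8 in Mrps12+/+, 2969.9, 3140.7 and 3599.9 in Mrps12ep/ep and 1240.7, 1887.6 and 4106.5 in Mrps12ha/ha hearts. Mrps12ha/ha mice 1 and 2 were below every other heart and mouse 3 was within the range of the controls. The log2 fold change was -1.09 (-1.94 to -0.25, adjusted p = 0.213), and it ran from -1.57 without mouse 3 (adjusted p = 0.211) to -0.71 without mouse 1 (adjusted p = 0.54) and -0.66 with array weights (adjusted p = 0.193). Of the 6 other glucocorticoid-induced genes 2 did not overlap, both lower, with Tsc22d3 (-0.46 ± 0.20) the farther from 0, a share to be read against the 21.2% of all genes. Of 12 clock genes 9 did not overlap, against the same 21.2%. Among them were Dbp, an output factor of the clock (1.09 ± 0.22, adjusted p = 0.159), and Npas2, a partner of BMAL1 (-0.98 ± 0.33). Without mouse 2, 0 and 1 of the 6 were called higher and lower, and 4 and 1 of the 12, against 12.2% and 14.8% of all genes. Their part in the Ddit4 values was not tested.

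The mitokines gave no difference in the heart that the spread between mice allowed to be seen. Fgf21 was at 0 to 7.8 normalized counts in all 9 hearts, 10 to 15 reads per genotype, and was at 0 in 1 mouse of each. Gdf15 was counted at 165.3, 26.8 and 25.2 in Mrps12+/+, 53.5, 59.7 and 25.4 in Mrps12ep/ep and 95.7, 39.3 and 69.8 in Mrps12ha/ha hearts. Control mouse 1 was the highest of all hearts and the other controls were among the lowest, so the interval of the log2 fold change was wide (0.40, -1.18 to 1.97).

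In Mrps12ep/ep hearts 0 of 9 genes had an adjusted p under 0.05, as did 0.0% of all genes. At an unadjusted p under 0.05 there was 1 (Atf3, against 1.69% of all genes), and the groups did not overlap for 2 (Atf3 and Trib3, against 8.03%). Their log2 fold changes were -0.65 and 0.31, beside -1.53 and 0.96 in Mrps12ha/ha, and both mutants share their controls. The direct comparison of Mrps12ha/ha with Mrps12ep/ep gave 0 of 9 at an adjusted p under 0.05 (0.0249% of all genes), 4 of 9 at an unadjusted p under 0.05 (17.9%) and 4 of 9 with no overlap (16.6%). These were Ddit3 (log2 fold change 0.66, 0.33 to 0.99, adjusted p = 0.213), Atf3 (-0.88, -1.40 to -0.36), Trib3 (0.65, 0.11 to 1.19) and Chac1 (0.41, 0.03 to 0.79). Without Mrps12ha/ha mouse 2, 3 of them (Ddit3, Atf3 and Trib3) had an adjusted p under 0.05, as did 23.2% of all genes, and with array weights 3 of 9 (Ddit3, Atf5 and Trib3), as did 39.3%.

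**Figure D2:**
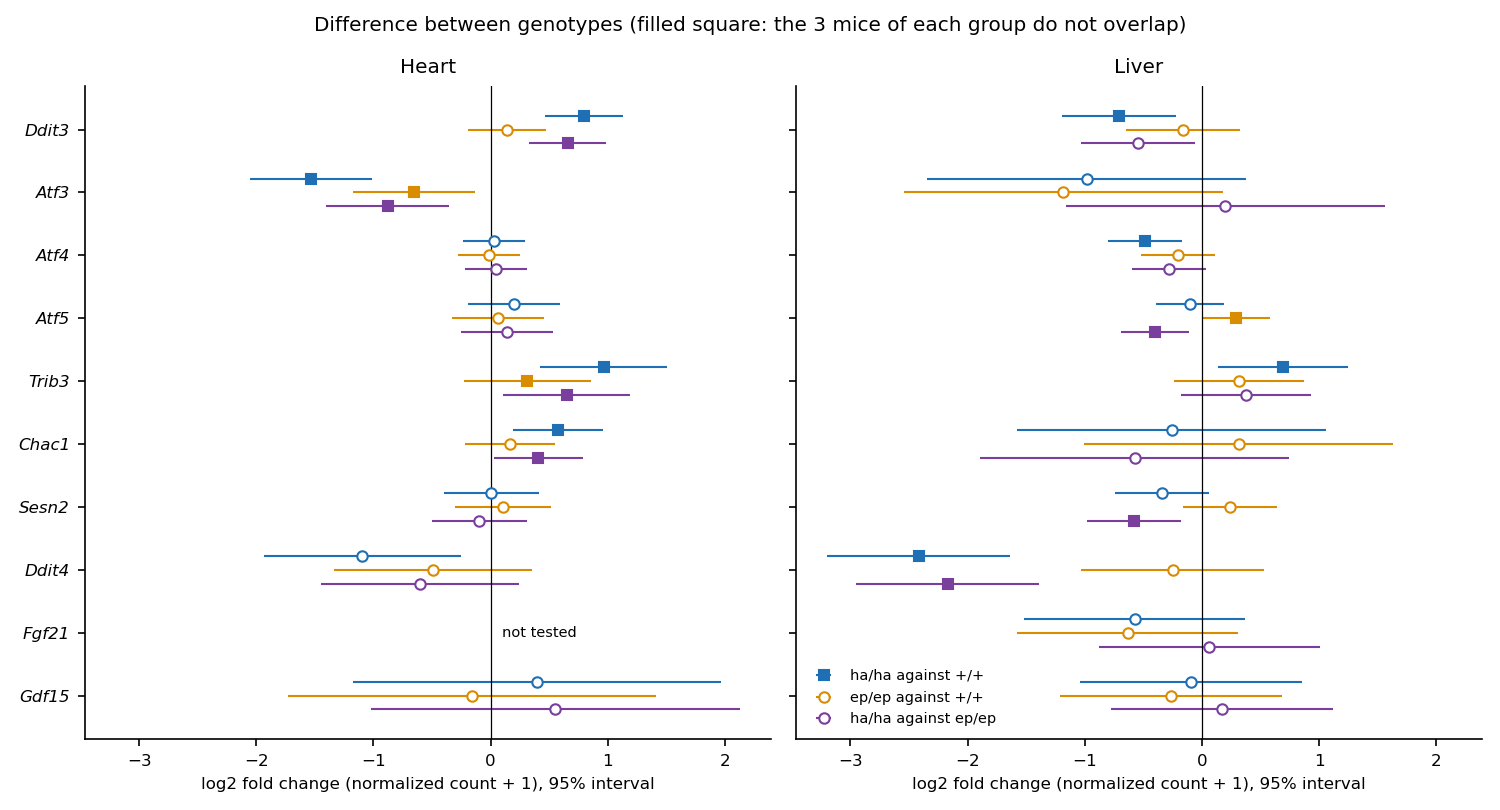
Log2 fold changes with 95% intervals from limma for the 3 comparisons in heart (left) and liver (right), on the scale of log2 of the normalized count plus 1, with filled squares where the 3 mice of one group do not overlap the 3 of the other. Ddit3 in Mrps12ha/ha lies at 0.80 in the heart and at -0.71 in the liver, Trib3 is above 0 in both, and Ddit4 in the liver lies at -2.42 against Mrps12+/+ and at -2.17 against Mrps12ep/ep.

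In the liver the Mrps12ha/ha mice held less Ddit4, Ddit3 and Atf4 and more Trib3 than the controls, again with no overlap between the groups and again short of the adjusted threshold. Of the 10 genes, all tested, 0 had an adjusted p under 0.05 (0.00653% of the 15314 genes tested, that is 1 gene), 4 had an unadjusted p under 0.05 (14.1% of all genes) and the same 4 did not overlap (19.9%). Of the 10 log2 fold changes 9 were below 0, with a median of -0.41 against -0.02 over all genes. Ddit4 was the nearest to the threshold.

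**Figure D3:**
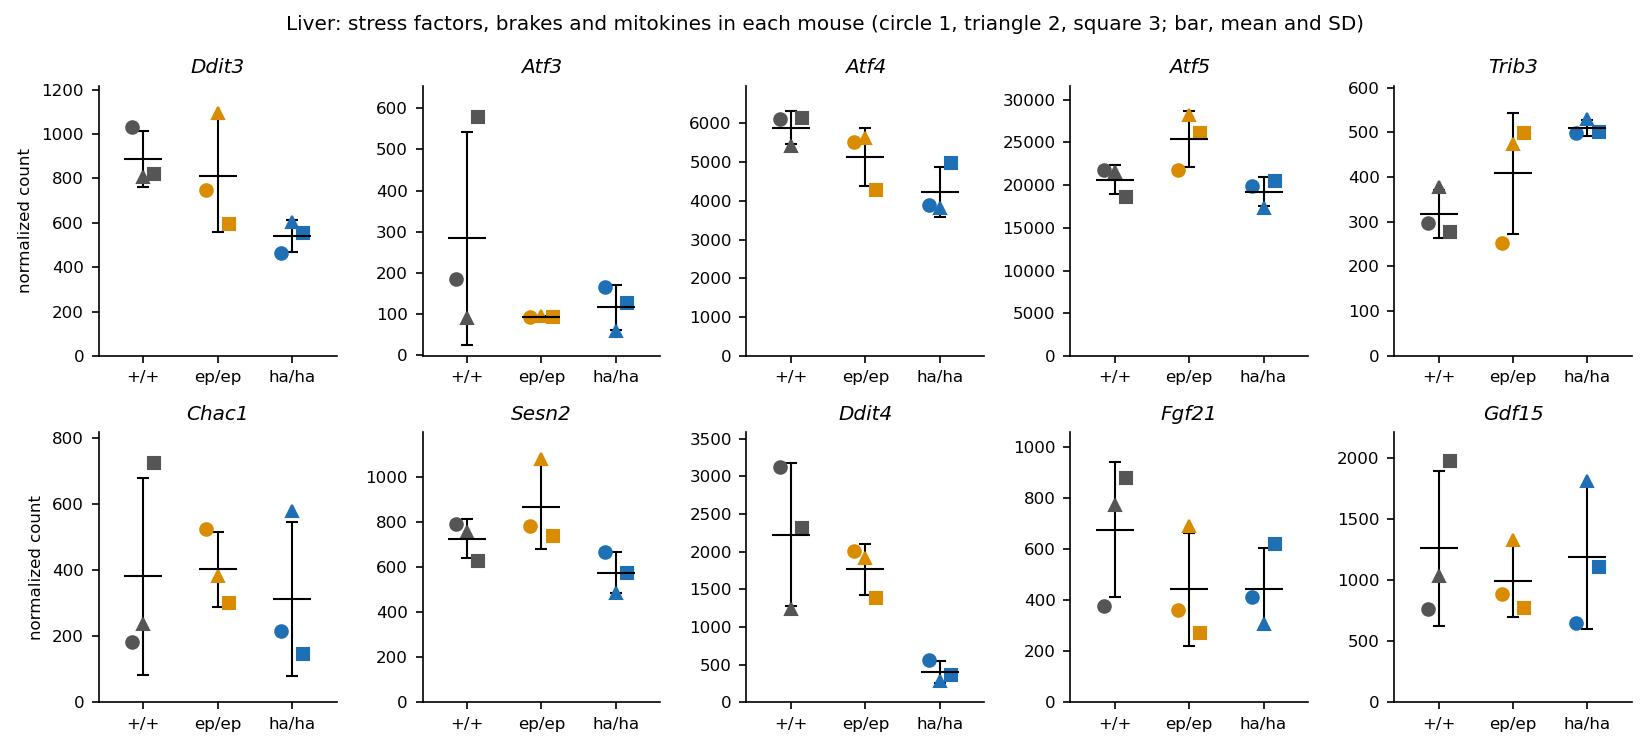
Normalized counts of the 10 genes in each of the 9 livers, drawn as for the heart, with the mean and SD of 3 mice. The Mrps12ha/ha mice lie below all others for Ddit4 (283.9 to 561.7 against at least 1234.0), and Mrps12+/+ mouse 3 is the highest liver for Atf3 (578.0), Chac1 (724.8) and Gdf15 (1973.0).

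Ddit4 was counted at 3120.3, 1234.0 and 2315.4 in Mrps12+/+, 2012.4, 1913.1 and 1382.7 in Mrps12ep/ep and 561.7, 283.9 and 363.9 in Mrps12ha/ha livers. Every Mrps12ha/ha liver was below the lowest of the other 6. The mean of the controls was 5.51 times that of the Mrps12ha/ha mice, a log2 fold change of -2.42 (-3.20 to -1.64, limma adjusted p = 0.0722). Without Mrps12+/+ mouse 2, the control with the fewest Ddit4 reads and one of the 2 livers with muscle transcripts, it was -2.79 with an adjusted p of 0.0321, and then 1 of the 10 genes and 0.588% of all genes passed. Over the alternatives tried the adjusted p of Ddit4 ran from 0.0321 to 0.279. Of the 6 other glucocorticoid-induced genes in the liver, Sgk1, a kinase, was lower without overlap (-1.27 ± 0.32) and Klf9 higher (0.49 ± 0.16), and of the clock genes Per3 was higher (1.31 ± 0.28, adjusted p = 0.119) and Clock was at -0.16 ± 0.10. Of the 12 clock genes 5 were higher and 1 lower without overlap, where 19.9% of all genes did not overlap in either direction. Against Mrps12ep/ep livers 4 were higher and 3 lower without overlap, where 17.8% of all genes did not overlap. Time of sampling is not among the labels, and its part in the Ddit4 values was not tested.

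Ddit3 was counted at 1033.4, 806.2 and 820.2 in Mrps12+/+, 749.4, 1095.0 and 594.8 in Mrps12ep/ep and 464.1, 605.4 and 556.3 in Mrps12ha/ha livers. The Mrps12ha/ha livers were below all controls, whereas in the hearts they were above them. This was a log2 fold change of -0.71 (-1.19 to -0.22, adjusted p = 0.212). Atf4 was counted at 6124.5, 5410.5 and 6148.8 in Mrps12+/+ and at 3898.5, 3821.5 and 4975.1 in Mrps12ha/ha livers, with Mrps12ep/ep at 4270.2 to 5632.5. Its log2 fold change was -0.49 (-0.80 to -0.17, adjusted p = 0.195), in the direction of Ddit3 and with the groups apart, unlike in the heart.

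Trib3 was the one gene of the 10 that lay above 0 in the Mrps12ha/ha livers. It was counted at 296.6, 378.4 and 278.0 in Mrps12+/+, 253.2, 474.1 and 499.4 in Mrps12ep/ep and 497.4, 529.0 and 501.2 in Mrps12ha/ha livers. The Mrps12ha/ha mice were close together and above all controls, and the log2 fold change was 0.69 (0.14 to 1.25, adjusted p = 0.27), so Trib3 was on the same side in both tissues where Ddit3 was not. Atf5, the most abundant of the 10 in the liver, was highest in Mrps12ep/ep mice, at 21780.9, 28247.6 and 26151.6 against 21745.9, 21480.3 and 18640.3 in controls and 19863.8, 17269.5 and 20478.6 in Mrps12ha/ha mice. Its lowest Mrps12ep/ep liver and highest control were nearly equal. Sesn2 was likewise highest in Mrps12ep/ep livers (739.1 to 1079.8) and lowest in Mrps12ha/ha livers (485.3 to 666.4), with the controls at 628.6 to 792.7 overlapping both.

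Of the 10 genes 5, Atf3, Chac1, Gdf15, Fgf21 and Atf4, were highest in Mrps12+/+ mouse 3, the liver in which acute phase transcripts took 4.12% of the counts. Without that mouse the log2 fold change in Mrps12ha/ha livers was -0.45 for Atf4 (adjusted p = 0.303) and -0.34 for Fgf21. Atf3 was counted at 185.4, 90.6 and 578.0 in controls, at 92.5 to 94.7 in Mrps12ep/ep and at 58.7 to 166.6 in Mrps12ha/ha livers. Its log2 fold change in Mrps12ha/ha was -0.98 (-2.35 to 0.38), and -0.27 without mouse 3. Chac1 was counted at 181.9, 237.7 and 724.8 in controls and at 216.6, 580.8 and 145.6 in Mrps12ha/ha livers, and its log2 fold change turned from -0.26 to 0.34 without that mouse. Of the other 15 immediate early genes, 7 were lower without overlap in Mrps12ha/ha livers, against 9.81% of all genes, and 14 lay below 0 (median -0.65). In Mrps12ep/ep livers, against the same controls, 13 of the 15 lay below 0 (median -0.57). There 5 were lower and 1 higher without overlap, where 12.8% of all genes did not overlap in either direction. Between the mutants' livers the median was 0.08, with 8 above 0 and 7 below. For Atf3, Chac1 and Gdf15 the Mrps12ha/ha livers overlapped the controls, and the part of the acute phase transcripts in these values was not tested.

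Both mitokines were well detected in the liver, and neither differed beyond the spread. Fgf21, which PPARα as well as ATF4 induces, was counted at 376.4, 775.5 and 880.5 in Mrps12+/+, 363.7, 693.1 and 273.0 in Mrps12ep/ep and 411.7, 306.5 and 619.7 in Mrps12ha/ha livers. The groups overlapped throughout, with log2 fold changes of -0.57 (-1.52 to 0.37) in Mrps12ha/ha and -0.63 (-1.58 to 0.31) in Mrps12ep/ep. Gdf15, the ligand of the brainstem receptor GFRAL, was counted at 764.0, 1036.7 and 1973.0 in Mrps12+/+, 888.2, 1324.1 and 767.9 in Mrps12ep/ep and 647.4, 1812.1 and 1105.2 in Mrps12ha/ha livers, a log2 fold change of -0.09 (-1.04 to 0.86) in Mrps12ha/ha. Each of these 3 intervals includes a log2 fold change of -1.

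In Mrps12ep/ep livers 0 of 10 genes had an adjusted p under 0.05 (0.00653% of all genes), and 1, Atf5 (log2 fold change 0.30, 0.01 to 0.58, adjusted p = 0.505), had an unadjusted p under 0.05 (9.74% of all genes) and no overlap (12.8%). Between Mrps12ha/ha and Mrps12ep/ep livers 0 of 10 passed the adjusted threshold (0.00653%), 4 had an unadjusted p under 0.05 (8.62%) and 3 did not overlap (17.8%). These 3 were lower in Mrps12ha/ha: Ddit4 (-2.17, -2.95 to -1.39, adjusted p = 0.151), Sesn2 (-0.58, -0.98 to -0.18) and Atf5 (-0.40, -0.69 to -0.11). Ddit3 (-0.55, -1.03 to -0.06) overlapped through Mrps12ep/ep mouse 3.

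**Figure D4:**
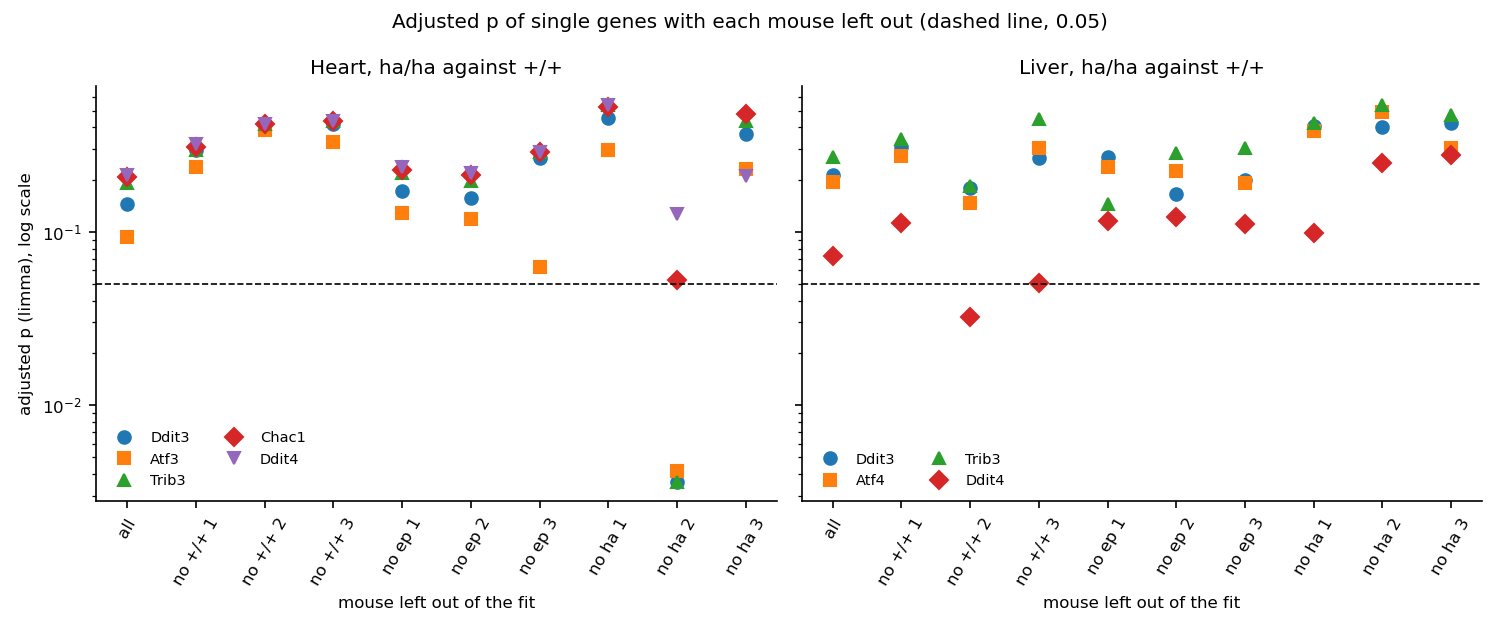
Adjusted p from limma (log axis) of the genes named for Mrps12ha/ha against Mrps12+/+, with all mice in the fit and with each of the 9 mice of a tissue left out. In the heart (left) Ddit3, Atf3 and Trib3 drop below the dashed line at 0.05 only without Mrps12ha/ha mouse 2, and in the liver (right) Ddit4 does so without Mrps12+/+ mouse 2.

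Across the 9 hearts the levels of several of these genes followed each other, and the relation lay between genotypes more than within them. Of 36 pairs of the 9 tested genes, 8 contain Trib3, whose hearts split into separate clusters (a gap of more than 0.5 of its range), and get no pooled coefficient. Of the other 28, 2 had an adjusted permutation p under 0.05. Ddit3 and Atf3 had r = -0.869 (exact permutation p = 0.00244, adjusted 0.022; Spearman's rho -0.967, p = 0.000165), and -0.664 without the 2 hearts farthest from the median of Ddit3. Atf3 and Chac1 had r = -0.868 (exact permutation p = 0.00232, adjusted 0.022; rho -0.867, p = 0.00451), and -0.86 without 2 hearts. With the mean of each genotype subtracted, r was -0.325 and -0.106, and 0 of the 36 pairs passed. Atf4 and Atf5 had r = 0.797 (exact permutation p = 0.0163, adjusted 0.0839) and kept 0.817 within genotypes, but 0.395 without the 2 farthest hearts. In the liver 0 of 45 pairs passed and 8 had an unadjusted permutation p under 0.05, of which Atf5 and Sesn2 had the largest coefficient (r = 0.861, exact permutation p = 0.00317, adjusted 0.143; 0.544 without 2 livers), followed by Ddit3 and Atf4 (r = 0.823, exact permutation p = 0.00805, adjusted 0.152; 0.798 without 2 livers).

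The wider pathway was described with 9 lists of other genes, in which 0 genes had an adjusted p under 0.05 in any of the 6 comparisons with all mice in the fit. Higher and lower without overlap therefore only place the 3 mice of one group beside the 3 of the other. Without Mrps12ha/ha mouse 2, the genes called higher and lower in Mrps12ha/ha over Mrps12+/+ hearts, against 12.2% and 14.8% of all genes, were 1 and 4 of 9 regulators of eIF2α, 2 and 5 of 25 ATF4 targets, 0 and 0 of 5 CHOP targets, 0 and 1 of 8 partners, 0 and 2 of 10 in the endoplasmic reticulum list and 0 and 7 of 10 in the mitochondrial one. They were 1 and 1 of 5 mitokine receptors and regulators, 1 and 1 of 12 PPARα targets and 1 and 4 of 11 paralogues. The kinases and phosphatases that set eIF2α phosphorylation numbered 9. In Mrps12ha/ha hearts 2 of 9 did not overlap, a share near the 21.2% of all genes, among them Eif2ak1, the haem- and mitochondria-sensing kinase (1124.7, 1682.2 and 1255.2 against 1847.1, 1810.9 and 1865.3 in controls, log2 fold change -0.46 ± 0.14, adjusted p = 0.209). It was also lower than in Mrps12ep/ep hearts (-0.41 ± 0.14). In livers Ppp1r15a (GADD34), the stress-induced phosphatase subunit and a target of CHOP, had log2 fold changes of -0.49 ± 0.33 in Mrps12ha/ha (adjusted p = 0.534) and -0.92 ± 0.33 in Mrps12ep/ep (adjusted p = 0.456), and between the mutants Eif2ak4 (GCN2) was at 0.25 ± 0.12 and Eif2s1, eIF2α itself, at -0.16 ± 0.11 in Mrps12ha/ha.

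Of 26 other ATF4 targets, chiefly amino acid synthesis, transport and tRNA charging, 25 were tested in each tissue. In Mrps12ha/ha hearts 19 of 25 lay below 0, with a median log2 fold change of -0.16 against -0.02 over all genes, and 6 did not overlap, near the 21.2% of all genes, 1 of them higher (Cars, 0.40 ± 0.15) and 5 lower, led by Iars (-0.46 ± 0.16). Most of these targets lay on the side opposite to Ddit3, Trib3 and Chac1. In Mrps12ha/ha livers 18 of 25 lay below 0 (median -0.16), with Slc38a2, a glutamine transporter, at 5190.9, 5170.2 and 4374.2 against 13024.3, 8231.8 and 11983.7 in controls (-1.15 ± 0.23, adjusted p = 0.116) and at -1.07 ± 0.23 against Mrps12ep/ep. Shmt2, of one-carbon metabolism, was higher (0.27 ± 0.12). Elsewhere Pycr1 was lower in Mrps12ha/ha than in Mrps12ep/ep hearts (-0.63 ± 0.28) and Aldh1l2 lower in Mrps12ep/ep livers than in controls (-1.21 ± 0.41).

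Of the 5 targets of CHOP, 0 were free of overlap in any comparison of the hearts. Of all genes 21.2% did not overlap in Mrps12ha/ha over Mrps12+/+, 8.03% in Mrps12ep/ep over Mrps12+/+ and 16.6% between the mutants. In Mrps12ha/ha over Mrps12+/+ hearts 4 of the 5 targets lay above 0, with a median of 0.19. In livers Bbc3 (PUMA), a pro-apoptotic target, was higher in Mrps12ha/ha (0.84 ± 0.25) and Mrps12ep/ep mice (0.77 ± 0.25) than in controls, while 3 of the 5 targets were lower without overlap in Mrps12ha/ha livers (9.81% of all genes), among them Ppp1r15a. The partners of ATF4 and CHOP differed most in the liver, where Cebpa was counted at 16189.0, 20125.9 and 18358.5 in Mrps12ha/ha and 8165.4, 12004.8 and 7652.9 in Mrps12+/+ mice (0.998 ± 0.176, adjusted p = 0.0935) and Cebpd was lower (-1.21 ± 0.22, adjusted p = 0.0982). Against Mrps12ep/ep livers Cebpa was higher as well (0.62 ± 0.18) and Cebpb lower (-0.48 ± 0.17), and Jun was lower in Mrps12ep/ep livers than in controls (-1.04 ± 0.26). Jun was also below the controls in Mrps12ha/ha livers (1808.8 to 2174.6 against 2257.7 to 5300.9). Cebpd was also below the controls in Mrps12ep/ep livers (537.0 to 603.7 against 861.2 to 1370.5). In the heart Nfe2l2 (NRF2) was lower in Mrps12ha/ha than in both other genotypes (-0.41 ± 0.11 and -0.32 ± 0.11).

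Ddit3 is also a target of the endoplasmic reticulum's own stress sensors, and the list of that response is described for both tissues. In the Mrps12ha/ha livers all 10 of its genes lay below 0, with a median of -0.80, and 7 did not overlap the controls (9.81% of all genes were lower without overlap). Against Mrps12ep/ep 9 did not overlap (9.01%), with a median of -0.76. Creld2, a secreted chaperone, was counted at 1318.5, 2469.4 and 1816.4 in Mrps12ha/ha and 6068.6, 3711.6 and 3678.5 in Mrps12+/+ livers (-1.27 ± 0.32, adjusted p = 0.158), and Sdf2l1 was lower than in Mrps12ep/ep livers (-1.03 ± 0.30). In the hearts 0 of the 10 were free of overlap in any of the 3 comparisons and the median in Mrps12ha/ha was -0.07. Of all genes 21.2% did not overlap in Mrps12ha/ha over Mrps12+/+ hearts, 8.03% in Mrps12ep/ep over Mrps12+/+ and 16.6% between the mutants. Without mouse 2, 2 of them were called lower against Mrps12+/+ and 3 against Mrps12ep/ep, as were 14.8% and 12.9% of all genes. Of the 10 genes of the mitochondrial unfolded protein response, 9 lay below 0 in Mrps12ha/ha hearts (median -0.40). Without overlap, 1 was higher (Clpp, a protease subunit, 0.41 ± 0.17) and 1 lower (Yme1l1, an inner membrane protease, -0.37 ± 0.14), near the 21.2% of all genes. With all mice 0 of the 10 had an adjusted p under 0.05. Without mouse 2, 7 of 10 were called lower, as were 14.8% of all genes. In mouse 2 Hspd1 (19521.9) and Hspa9 (32348.2) were within the range of the controls (17702.9 to 20867.7 and 29564.0 to 32559.2), while Clpp and Yme1l1 were outside theirs. In livers 0 of these 10 were free of overlap, where 19.9%, 12.8% and 17.8% of all genes did not overlap in the same 3 comparisons.

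**Figure D5:**
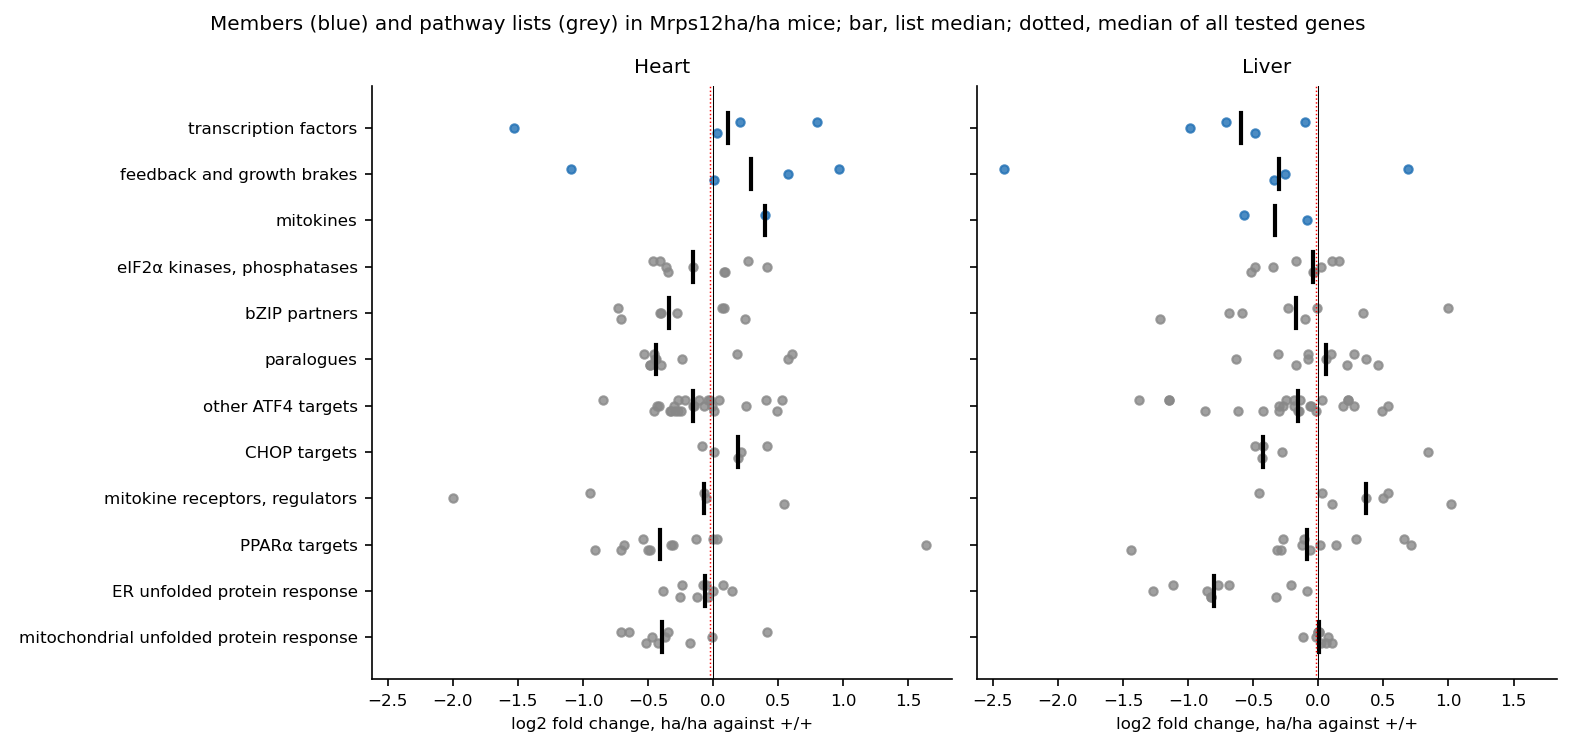
Log2 fold changes of Mrps12ha/ha over Mrps12+/+ for the 10 genes by role (blue) and for 9 lists of other pathway genes (grey), in heart (left) and liver (right), with a bar at each list's median and a dotted line at the median of all tested genes. The list of the endoplasmic reticulum response lies at a median of -0.80 in the liver and -0.07 in the heart, and 1 mitokine is missing in the heart because Fgf21 was not tested.

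For the mitokines, 4 of 7 tested receptors and regulators were higher without overlap in Mrps12ha/ha livers and 3 of 7 in Mrps12ep/ep livers, and 0 lower, where 19.9% and 12.8% of all genes did not overlap in either direction. Fgfr3, a receptor, was counted at 1354.2, 1962.3 and 1319.4 in Mrps12ha/ha and 823.5, 877.4 and 578.8 in Mrps12+/+ livers (1.02 ± 0.22, adjusted p = 0.121), and it was higher than in Mrps12ep/ep in both livers (0.74 ± 0.22) and hearts (0.70 ± 0.25). Fgfr2 was higher in Mrps12ep/ep livers than in controls (0.73 ± 0.17), and Fgfr4, the hepatic receptor of bile acid signalling, was lower in Mrps12ha/ha than in Mrps12ep/ep livers (-0.36 ± 0.18). Fgfr2 was also above the controls in Mrps12ha/ha livers (1204.0 to 1406.6 against 913.9 to 1055.7). Of 12 targets of PPARα, the fasting regulator of Fgf21, Pdk4 was lower in the livers of Mrps12ha/ha (-1.44 ± 0.39) and Mrps12ep/ep mice (-1.63 ± 0.39), and Cyp4a10 was higher in Mrps12ha/ha than in Mrps12ep/ep livers (1.37 ± 0.50) and hearts (1.98 ± 0.80). In Mrps12ha/ha over Mrps12+/+, 10 of the 12 lay below 0 in hearts (median -0.41) and 7 in livers (median -0.09). In Mrps12ep/ep over Mrps12+/+, 11 lay below 0 in hearts (median -0.47) and 11 in livers (median -0.53). In Mrps12ha/ha over Mrps12ep/ep, 8 lay above 0 in hearts (median 0.14) and 12 in livers (median 0.44). Angptl4, an inhibitor of lipoprotein lipase, was counted at 1194.6, 1235.2 and 2094.7 in Mrps12ha/ha and 533.0, 305.4 and 635.2 in Mrps12+/+ hearts (1.63 ± 0.29, adjusted p = 0.144), and Cyp4a14 was lower in Mrps12ep/ep hearts (-3.35 ± 1.05), its level there being 1.2 to 21.8. Hepatocyte markers lay on the same side in these hearts, with 10 of 10 below 0 in Mrps12ep/ep over Mrps12+/+ (median -2.47) and 9 of 10 above 0 in Mrps12ha/ha over Mrps12ep/ep (median 2.05), and Cyp4a14 was highest (224.8) in the heart with the most Alb (9895.2). The part of hepatocyte transcripts in the heart values of Cyp4a10 and Cyp4a14 was not tested.

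Among paralogues of the 10, Trib2 was higher in Mrps12ha/ha than in Mrps12+/+ hearts (0.61 ± 0.18, adjusted p = 0.206) and Sesn3 lower (-0.45 ± 0.18). Atf7 was higher in Mrps12ha/ha than in Mrps12ep/ep hearts (0.57 ± 0.14). In livers Sesn1 was higher (0.46 ± 0.19) and Atf1 was at -0.08 ± 0.08 (adjusted p = 0.694) in Mrps12ha/ha over controls, Chac2 was higher in Mrps12ep/ep than in controls (0.47 ± 0.17), and Trib1 was higher (0.55 ± 0.17) in Mrps12ha/ha than in Mrps12ep/ep, a comparison in which Atf2 was at -0.14 ± 0.08.

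The transcripts most like 4 of the genes across the 9 mice of a tissue were sought among all other tested genes by Pearson's r, as a description without a test. Ddit3 was followed in the heart by Ttc4 (r = 0.983), Pitpnm2 (0.983) and Gm37033 (0.978), and in the liver by Med28 (0.983), Srprb (0.969) and Creld2 (0.959). Atf4 was followed in the heart by Cdc42ep4 (0.975), Mtmr10 (0.97) and Kcna5 (0.937), and in the liver by Gm16973 (0.943), Gm36161 (0.933) and Senp3 (0.933). For the mitokines these were Cst6 (0.917), Hoga1 (0.902) and Lrrc71 (0.901) with Gdf15 in the heart, Wfdc21 (0.946), Rpl4 (0.938) and Olfr784 (0.936) with Gdf15 in the liver, and Cacng7 (0.974), Sdccag8 (0.964) and Fam173b (0.959) with Fgf21 in the liver. Each search covered 16048 genes in the heart or 15304 in the liver over 9 points that share their libraries.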

How the data were processed

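The authors trimmed reads with Trim Galore 0.4.1 and cutadapt 1.18, quantified them with Salmon 1.1.0 (stranded, GENCODE vM21, GRCm38.p6), summarised them to genes with tximport and normalized each tissue with DESeq2 without mitochondrial transcripts. The deposited normalized counts (1 column for each of 18 samples, each pooling 3 libraries, rounded to 1 decimal) were used. The authors' tables of fold changes and p-values were not used. In every column 100.0% of the low values were whole multiples of 1 step (within 0.05), taken as 1 read, which gave the depth.

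Here log2(normalized count + 1) was fitted with limma 3.58.1 in R 4.3.3 (lmFit, eBayes with trend), 3 genotypes per tissue in 1 fit. Genes with a mean of at least 10 were tested, and p-values were adjusted by Benjamini-Hochberg over all of them (threshold 0.05). The script was tested on simulated data. Exact permutation tests were two-sided over mice. Correlations used all orders of 9 samples and were adjusted over the pairs of a tissue. Fold changes of low genes are understated by the pseudocount.

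The 10 genes, the gene lists and the tests were chosen with earlier results of these data known. Named from the lists were genes past the threshold and, per list and comparison, the largest difference in each direction without overlap. Alternatives were pseudocounts of 0.1 and 8, no filter, a mean of at least 50, quantile normalization, TMM factors, 2 genotypes only, array weights, a replicate block, limma-voom on the reads and leaving out each mouse.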

Additional observations from a re-analysis of the deposited data

Results flagged for a closer look

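Ddit3 stood out because every Mrps12ha/ha mouse lay on one side of the controls in the heart and on the opposite side in the liver. The log2 fold change over Mrps12+/+ was 0.797 in the heart, where the Mrps12ha/ha mice were at 963.4 to 1373.2 normalized counts and the controls at 647.8 to 677.7, and -0.708 in the liver, where they were at 464.1 to 605.4 and the controls at 806.2 to 1033.4. The difference between the tissues was not tested, because the tables were normalized separately, and neither value had an adjusted p under 0.05 (0.144 and 0.212, limma). Groups of 3 mice are too small for a check of single outlying values.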

How the results depend on the processing

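Of 1083 refits of the 57 tested log2 fold changes, 1030 kept their direction and their side of the threshold, 18 came to an adjusted p under 0.05 and 35 changed sign, all of the last from values whose interval included 0. The number of the 10 genes called in Mrps12ha/ha hearts went from 0 to 5 against Mrps12+/+ and to 3 against Mrps12ep/ep with array weights, and ranged from 0 to 3 in both as single mice were left out, the 3 coming without Mrps12ha/ha mouse 2. In livers it went from 0 to 1 (Ddit4) against Mrps12+/+ with the replicate block, ranged from 0 to 1 with mice left out, and was 1 against Mrps12ep/ep with 2 genotypes only and with array weights. Of all 36 heart pairs, 4 correlated when the 2 such pairs with Trib3, which were set aside for its separate clusters, are counted, and 0 did after subtraction of genotype means. The causes were not tested.

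Mice with the same number did not deviate together throughout (correlations of -0.231 to 0.578 in hearts and -0.133 to 0.164 in livers), so the replicate block is only an alternative. Under it Ddit4 in Mrps12ha/ha livers had an adjusted p of 0.0427 (limma), and it changed no other call of these genes. Of all genes it called 7, 9 and 6 in the liver comparisons of Mrps12ha/ha with Mrps12+/+, Mrps12ep/ep with Mrps12+/+ and Mrps12ha/ha with Mrps12ep/ep, against 1 in each without it. Over all alternatives the genes called ran from 3 to 5573 in Mrps12ha/ha hearts against Mrps12+/+ and from 3 to 6314 against Mrps12ep/ep, and from 0 to 90, 0 to 68 and 0 to 18 in the liver comparisons in the same order.

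With limma-voom the sign turned for Atf4 (-0.002) and Sesn2 (-0.016) in Mrps12ha/ha hearts, Gdf15 in Mrps12ha/ha livers (0.057) and Fgf21 between the mutants' livers (-0.139). So it did with TMM factors for Sesn2 in Mrps12ha/ha hearts (-0.011), with quantile normalization for Atf4 in Mrps12ep/ep hearts (0.012) and with array weights for Atf5 in Mrps12ep/ep hearts (-0.050).

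With single mice left out, the log2 fold changes that turned ranged as follows. In Mrps12ha/ha hearts against Mrps12+/+ Atf4 ranged from -0.075 to 0.11, Sesn2 from -0.127 to 0.11 and Gdf15 from -0.063 to 1.270. In Mrps12ep/ep hearts Atf4 ranged from -0.063 to 0.017, Atf5 from -0.009 to 0.151, Sesn2 from -0.018 to 0.181 and Gdf15 from -0.616 to 0.717. Between the mutants' hearts Atf4 ranged from -0.061 to 0.123, Atf5 from -0.033 to 0.328 and Sesn2 from -0.232 to 0.005. In Mrps12ha/ha livers Chac1 ranged from -0.825 to 0.342 and Gdf15 from -0.456 to 0.293. In Mrps12ep/ep livers Ddit3 ranged from -0.399 to 0.040, Chac1 from -0.081 to 0.913, Ddit4 from -0.622 to 0.047 and Gdf15 from -0.565 to 0.119. Between the mutants' livers Atf3 ranged from -0.113 to 0.632, Fgf21 from -0.231 to 0.439 and Gdf15 from -0.192 to 0.550.

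DESeq2 and edgeR were planned and not run, because the deposited tables write larger values with digit-group separators and could not be registered as counts here. Whole reads were recovered all the same, and limma-voom was run on them. Among differences without overlap or with an unadjusted p under 0.05, alternatives moved 3 by more than 1.5 times beside that of Ddit4 in the heart: Atf3 in hearts (-1.013 to -0.416 in Mrps12ep/ep over Mrps12+/+ and -1.116 to -0.567 between the mutants) and Ddit3 between the mutants' livers (-0.749 to -0.309). With 3 mice per group and pooled technical libraries, depth limits Fgf21 in the heart (at most 11 reads per mouse) and Trib3 and Chac1 in Mrps12ha/ha heart 2 (48 and 53 reads).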
